A study of Mus musculus with 27 samples.

Results

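Sox17 shRNA embryoid bodies were compared at day 8 and day 6 of differentiation, on the 4 arrays whose titles name the Sox17 shRNA with day 8 (2 arrays) or day 6 (2 arrays), out of 27 arrays in the series. The cells were mouse embryonic stem cells of the AB2.2 line that carried a lentivirus with enhanced green fluorescent protein and a short hairpin RNA (shRNA) against Sox17. They were sorted on the fluorescent protein, aggregated in hanging drops into embryoid bodies, and plated at day 4.5, so both days lie after plating. The control arrays of the same days (2 at day 8 and 2 at day 6) came from cells with the same kind of vector and an shRNA against firefly luciferase, a gene that mouse cells lack, so every group carried a lentivirus, the fluorescent protein and a hairpin. The title of the series poses the question of a Sox17 pathway towards heart mesoderm in which Hhex and Cer1 are intermediates. Each group has 2 arrays that the labels name biological replicates, with nothing on whether they were separate transductions. P-values rest on the spread between such replicates, pooled for each gene over the groups of both arms. The hairpin sequence is not given in the sources used here.

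Sox17 is a transcription factor of the endoderm and of the endothelium that gives rise to blood. In embryoid bodies, mesoderm forms both beating heart muscle and primitive red blood cells, which carry embryonic globins. Heart muscle turns on its contractile genes in steps: cardiac troponin T (Tnnt2) and the atrial light chains (Myl7, Myl4) are early, while adult troponin I (Tnni3) replaces a fetal form (Tnni1) as the muscle matures.

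Values are log2 expression levels of the deposited RMA table, on which a difference of 1 is a 2-fold change. Probe sets differ in how strongly they bind, so levels are compared between arrays and not between genes. Genes whose limma test gave an adjusted p below 0.05 over the 13297 genes tested are called changed. In these whole cultures, fewer cells of a type and less RNA per cell cannot be told apart. The 2 replicates of a day lay further apart under the Sox17 shRNA than in control: their differences, taken gene by gene, had an SD of 0.36 on both days in the Sox17 shRNA arm, against 0.14 at day 8 and 0.19 at day 6 in control. The limma test used the same spread for both arms, so its p-values do not reflect this gap. With array quality weights 519 genes rose and 512 fell in the Sox17 shRNA arm, against 788 and 883 in the main fit. Replicate 2 of the Sox17 shRNA at day 6 stood apart in its control probes. Its actin 3' to 5' difference, a sign of RNA integrity, was 0.75, while the other 7 arrays of these days lay between 0.41 and 0.53. Its 18S ribosomal probe set stood at 6.18, against 5.11 to 5.48 in the other 7. Some of the results that change without that array are given below with and without it. The number of genes with a more positive change than in control was higher without it. Calls of other single genes also change without it and are not all listed.

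The targeted gene was separated between the arms at day 8 and not at day 6, and neither difference passed the test. Sox17 had levels of 7.90 and 8.54 in Sox17 shRNA arrays at day 8, against 9.91 and 10.29 in control arrays, and the groups did not overlap. At day 6 it had levels of 8.60 and 9.39 in Sox17 shRNA arrays, against 9.83 and 9.35 in control arrays. Replicate 2 of the Sox17 shRNA at day 6 thus lay within the control range, and for that array the level of Sox17 does not set it apart from control. The difference between arms was -1.88 at day 8 (adjusted p = 0.25, limma) and -0.60 at day 6 (adjusted p = 0.835, limma). Within the Sox17 shRNA arm the day 8 minus day 6 difference was -0.77 (SE 0.80, adjusted p = 0.571, limma). The replicates had differed more before plating: Sox17 stood at 5.53 and 9.39 in the Sox17 shRNA arrays of day 4, against 10.30 and 10.66 in control. Hhex, a homeobox factor of anterior endoderm and blood progenitors, had levels of 7.55 and 6.77 at day 8 against 7.71 and 7.75 at day 6 (difference -0.57, adjusted p = 0.446, limma). Cer1, which binds and blocks Nodal and BMP ligands outside the cell, was near its floor on both days, with 4.11 and 4.32 at day 8 against 4.92 and 4.87 at day 6 (difference -0.68, adjusted p = 0.496, limma). The days did not overlap for Cer1, and its fall passed in a fit of the 8 arrays of days 6 and 8 alone (adjusted p = 0.0107, limma).

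Between day 6 and day 8, Sox17 shRNA embryoid bodies gained transcripts of connective tissue, of part of the heart muscle programme, and of red cells and platelets. In all, 788 genes rose (5.93% of the genes tested) and 883 fell (6.64%), of which 263 rose and 61 fell at least 2-fold. Both day 8 arrays lay above both day 6 arrays in 20.2% of genes and below them in 33.8%, with or without a call. The median difference over all genes was -0.06. In the control arm over the same days 751 genes rose (5.65%) and 356 fell (2.68%), on arrays that share nothing with the Sox17 shRNA arm. Leaving out 1 control array gave 213 to 381 rises and 49 to 95 falls, array quality weights gave 2416 and 2246, and centring arrays on their median gave 753 falls, so the counts of the 2 arms and their overlap are not to be ranked. The arms had 397 rising genes in common, which is 50.4% of the Sox17 shRNA list and 52.9% of the control list, and 226 falling genes (25.6% and 63.5%). No gene was called in opposite directions. Across genes the changes in the 2 arms had a Pearson r of 0.69 over 13297 genes, which are not independent replicates. The test of the difference between the 2 changes found 22 genes with a more positive change (0.165%) and 29 with a more negative change (0.218%) in the Sox17 shRNA arm. Leaving out 1 array moved the 22 to between 5 (without control replicate 1 of day 6) and 40 (without Sox17 shRNA replicate 2 of day 8) and the 29 to between 17 and 29, and a fit of the 8 arrays alone gave 7 and 17. Without replicate 1 of the Sox17 shRNA at day 6 the arm's counts were 375 rises and 298 falls, without replicate 2 of day 8 they were 522 and 393, and without replicate 2 of day 6 they were 768 and 804.

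**Figure D1:**
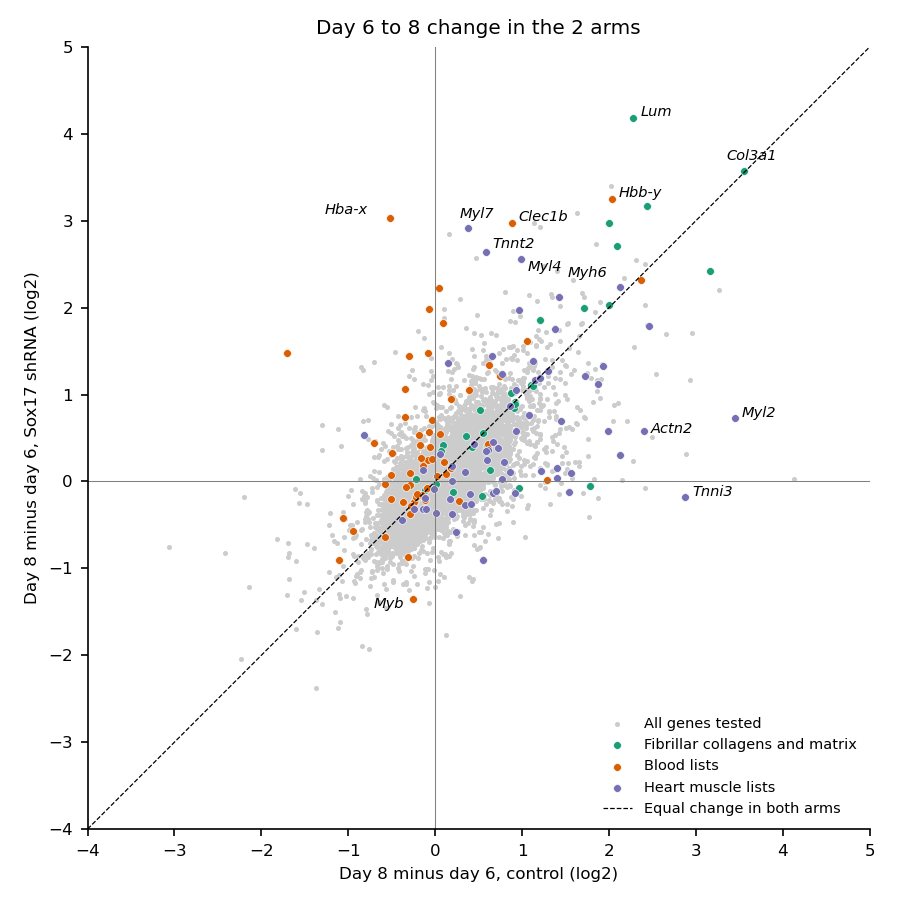
Day 8 minus day 6 difference (log2) of each of the 13297 genes in the Sox17 shRNA arm (vertical axis) against the control arm (horizontal axis), with members of the heart muscle, blood and collagen lists coloured and equal change drawn as a dashed line. Tnnt2, Myl7 and Myl4 lie above the dashed line, Tnni3, Myl2 and Actn2 lie below it, and collagens such as Col3a1 lie near it.

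The largest rise was that of Lum, lumican, a proteoglycan that organises collagen fibrils. Its levels were 9.19 and 10.13 at day 8, against 4.60 and 6.36 at day 6, an 18.1-fold rise (log2 4.18, SE 0.37, adjusted p = 1.75e-06, limma). Both day 8 arrays stood far above both day 6 arrays, although the day 6 replicates themselves were far apart. Col3a1, the type III collagen chain, had 12.92 and 12.89 at day 8 against 8.51 and 10.15 at day 6, an 11.9-fold rise. The other genes of the 10 largest rises were S1pr3 (log2 3.40), a receptor for the lipid sphingosine 1-phosphate; Postn (3.17), periostin, a matrix protein; Cxcl12 (3.09), a chemokine; Clec1b (2.98), a platelet receptor; Col5a2 (2.98), a type V collagen chain; Mab21l2 (2.98); Dlk1 (2.92), a membrane protein related to Notch ligands; and Myl7 (2.92). Of the 3 Cxcl12 probe sets that passed the filter, the remaining pair differed in sign, at 3.21 and -0.27.

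The 10 largest falls were smaller. They were Ms4a4d (-2.38), Phlda2 (-2.04), a growth-restraining imprinted gene of extraembryonic tissue, Stmn2 (-1.93), a microtubule regulator of neurons, Cited1 (-1.77), a transcriptional coregulator, Spin2c (-1.74), Hoxb6 (-1.69), Fgf5 (-1.69), a growth factor of the epiblast, Padi3 (-1.61), Cdx2 (-1.52), a homeobox factor of the trophectoderm and of the posterior body, and Plac1 (-1.46), a placental gene. Cdx2 had 6.62 and 6.31 at day 8, against 8.41 and 7.57 at day 6. Fgf5 had 4.54 and 5.47 at day 8, against 6.44 and 6.96 at day 6. The groups did not overlap for either gene.

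Heart muscle genes rose in part. Of 65 genes tested in the 5 lists of contractile, calcium and metabolic genes, 23 rose and 2 fell, where 5.93% of all genes rose. Their median difference was 0.32, against -0.06 over all genes. Without replicate 2 of day 6, 22 rose, and over the alternatives that leave out 1 of the 4 arrays the count ran between 17 and 23. In the control arm 32 of the 65 rose over the same days, where 5.65% of all genes rose.

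The genes of the early programme rose steeply, yet stayed far below control. Tnnt2, cardiac troponin T, which anchors the troponin complex on the thin filament, had 8.08 and 7.54 in Sox17 shRNA arrays at day 8, against 4.97 and 5.37 at day 6. In control it had 11.73 and 11.46 at day 8, against 10.98 and 11.05 at day 6. All Sox17 shRNA arrays lay below all control arrays. The rise was 6.23-fold (log2 2.64, SE 0.16, adjusted p = 6.44e-08, limma), and the Sox17 shRNA arm was still 13.8-fold below control at day 8, where it had been 57.5-fold below at day 6. The Tnnt2 change exceeded that of control by 2.06 (adjusted p = 1.91e-04, limma), which missed the threshold in a fit of the 8 arrays of days 6 and 8 alone (adjusted p = 0.0716). Myl7, the atrial regulatory light chain, had 9.08 and 8.38 at day 8, against 5.54 and 6.09 at day 6, while control stayed between 12.31 and 12.86 on both days. Its change exceeded that of control by 2.54 (adjusted p = 0.0376, limma). That call ended without replicate 1 of either Sox17 shRNA day (adjusted p = 0.2 and 0.205), without each of the 4 control arrays (adjusted p between 0.133 and 0.182) and in a fit of the 8 arrays alone (adjusted p = 0.0652). Myl4, the atrial essential light chain, had 8.57 and 7.55 at day 8 against 5.60 and 5.41 at day 6, a 5.90-fold rise. Its change exceeded that of control by 1.57 (adjusted p = 0.0446, limma). This difference was called neither in a fit of the 8 arrays alone nor without replicate 2 of the Sox17 shRNA at day 6. In both light chains the day 8 arrays stood clear of the day 6 arrays.

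Other contractile genes were called in both arms. Myh6, the alpha myosin heavy chain, had 6.27 and 5.99 in Sox17 shRNA arrays at day 8 against 3.84 and 3.96 at day 6, and 11.60 and 11.26 in control arrays at day 8 against 9.39 and 9.22 at day 6. The change was 2.23 in the Sox17 shRNA arm and 2.13 in control, and the difference of the changes was 0.10 (SE 0.21, limma adjusted p of 1). Actc1, the main actin of the embryonic heart, had 10.31 and 10.06 at day 8 against 8.29 and 8.14 at day 6. It rose by 1.97 in the Sox17 shRNA arm and 0.97 in control, and the difference of 1.0 did not pass (adjusted p = 0.207, limma). Ttn, titin, the spring of the sarcomere, rose by 2.12, and Nebl, a thin filament protein of the Z-disc, by 1.38. Myh7, the beta myosin heavy chain, was less certain: its levels of 8.18 and 9.10 at day 8 stood against 5.74 and 8.04 at day 6, and its rise of 1.75 (adjusted p = 0.0365, limma) was lost without replicate 1 of day 6 (0.60, adjusted p = 0.501) and without replicate 2 of day 8 (1.29, adjusted p = 0.26).

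**Figure D2:**
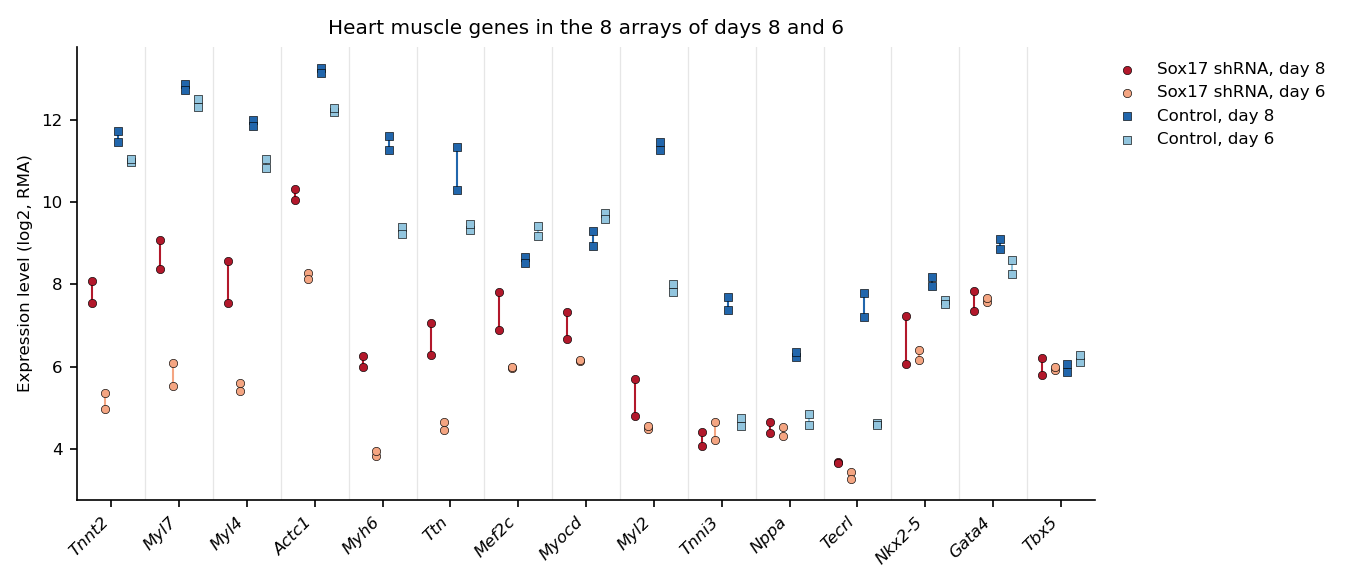
Expression level (log2, RMA) of 15 heart genes in the 2 arrays of each group, joined by a line, with Sox17 shRNA at day 8 (red) and day 6 (orange) as circles and control at day 8 (dark blue) and day 6 (light blue) as squares. Tnnt2, Myl7, Myl4 and Actc1 rise between day 6 and day 8 in the Sox17 shRNA arm but stay below control, whereas Tnni3, Nppa and Tecrl are high in control at day 8 alone.

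The promoters of the 4 heart genes whose levels lead this account are printed to show what their start regions hold. They are RefSeq sequences of GRCm38.p6, with 250 bases before and 50 bases after the start of the first listed transcript, and capitals mark every match on either strand to the motifs GATAA (GATA factors), CACCC (Klf factors), TATAAA, CTA with TAG after a gap of 4 bases (MEF2 factors), CAGCTG (an E box) and the CArG box of serum response factor.
Tnnt2, chr1:135836084-135836383, plus strand: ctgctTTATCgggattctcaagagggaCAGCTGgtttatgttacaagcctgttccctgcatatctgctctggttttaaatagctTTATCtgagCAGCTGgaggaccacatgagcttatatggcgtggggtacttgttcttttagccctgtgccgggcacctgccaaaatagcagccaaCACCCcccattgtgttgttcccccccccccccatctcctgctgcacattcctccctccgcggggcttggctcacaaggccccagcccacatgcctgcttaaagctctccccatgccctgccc
Myl7, chr11:5898733-5899032, minus strand: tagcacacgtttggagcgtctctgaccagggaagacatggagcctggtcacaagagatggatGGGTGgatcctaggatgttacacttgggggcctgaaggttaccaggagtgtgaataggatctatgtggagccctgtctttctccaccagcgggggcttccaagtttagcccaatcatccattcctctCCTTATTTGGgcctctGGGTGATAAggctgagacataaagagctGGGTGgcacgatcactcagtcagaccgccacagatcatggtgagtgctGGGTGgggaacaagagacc
Actc1, chr2:114052826-114053125, minus strand: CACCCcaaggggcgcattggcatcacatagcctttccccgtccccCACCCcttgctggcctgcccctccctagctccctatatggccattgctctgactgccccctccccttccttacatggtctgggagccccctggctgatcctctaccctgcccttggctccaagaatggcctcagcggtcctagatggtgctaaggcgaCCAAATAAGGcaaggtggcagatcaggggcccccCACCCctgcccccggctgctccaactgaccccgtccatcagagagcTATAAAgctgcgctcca
Myh6, chr14:54966558-54966857, minus strand: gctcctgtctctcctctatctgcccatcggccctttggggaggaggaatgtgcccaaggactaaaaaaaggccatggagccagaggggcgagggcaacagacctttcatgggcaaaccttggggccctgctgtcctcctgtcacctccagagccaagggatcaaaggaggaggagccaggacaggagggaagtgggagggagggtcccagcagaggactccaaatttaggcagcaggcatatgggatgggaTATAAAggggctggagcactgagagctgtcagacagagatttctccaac
The CArG box stood at bases -61 to -52 of Myl7 and -47 to -38 of Actc1, counted from the start, and in 1.63% of the 32851 promoters of the table. GATAA stood at 2 places in Tnnt2 and at 1 in Myl7, where it overlaps a CACCC on the other strand, against 25.4% of all promoters with at least 1. CACCC occurred in 57.5% of all promoters, TATAAA in 13.6%, CAGCTG in 16.3% and the MEF2 motif in 3.69%. These matches describe letters and not bound sites.

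A later set of heart muscle genes rose in control and was not called in the Sox17 shRNA arm. Tnni3, adult cardiac troponin I, had 4.42 and 4.08 in Sox17 shRNA arrays at day 8, against 4.66 and 4.22 at day 6. In control it had 7.68 and 7.38 at day 8, against 4.76 and 4.55 at day 6. Day 8 and day 6 overlapped in the Sox17 shRNA arm and stood clear of each other in control, and the changes differed by -3.06 (SE 0.38, adjusted p = 4.46e-04, limma). Tecrl, a gene of inherited arrhythmia in humans, had 3.69 and 3.66 in Sox17 shRNA arrays at day 8 against 3.45 and 3.27 at day 6, and 7.80 and 7.20 in control arrays at day 8 against 4.64 and 4.59 at day 6. Its changes differed by -2.56 (adjusted p = 1.24e-05, limma). Nppa, atrial natriuretic peptide, stood between 4.30 and 4.65 in all 4 Sox17 shRNA arrays, and its changes differed by -1.48 (adjusted p = 0.00972, limma). Srl (-2.06), sarcalumenin, a calcium store protein, and Cacna2d2 (-2.49), a calcium channel subunit, also had more negative changes than in control, with Sox17 shRNA changes of -0.19 and -0.08 that were not called. Igfbp1 (-2.13), a binding protein of insulin-like growth factors, and Foxd1 (-2.03), a forkhead factor of stromal progenitors, completed the 6 most negative differences outside and inside the lists. The group means of Tecrl, Nppa, Igfbp1 and Foxd1 exceeded the level of the expression filter in control at days 8 and 10 alone. These genes were thus tested mainly through groups where control was high.

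Of the 65 heart muscle genes, 3 had a more positive change in the Sox17 shRNA arm (Tnnt2, Myl7 and Myl4) and 8 a more negative change, where the shares over all genes were 0.165% and 0.218%. Both counts were lower without replicate 2 of the Sox17 shRNA at day 6. The 3 became 1 without replicate 1 of either Sox17 shRNA day or without any 1 of the 4 control arrays, and 0 in a fit of the 8 arrays alone. The 8 became 3 without control replicate 1 of day 6, 5 without either control replicate 2 or without Sox17 shRNA replicate 1 of day 8, and 6 in the fit of the 8 arrays. Chosen after their values were seen, the 6 of these besides Tnni3 and Nppa were Actn2 (-1.82) and Csrp3 (-1.82), which are Z-disc proteins, Smpx (-1.41), Pln (-1.66), phospholamban, the brake of the calcium pump, Slc8a1 (-1.24), the sodium-calcium exchanger, and Kcnj5 (-1.05), a potassium channel. Smpx rose in both arms, by 0.58 in the Sox17 shRNA arm and 1.99 in control. Its group means, too, exceeded the level of the expression filter in control at days 8 and 10 alone. Myl2, the ventricular regulatory light chain, had 4.79 and 5.70 in Sox17 shRNA arrays at day 8 against 4.47 and 4.57 at day 6, and its control rise of 3.45 was the largest of the 65. The difference of its changes, -2.73, did not pass (adjusted p = 0.124, limma).

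Even the genes that rose ended low. Both Sox17 shRNA arrays of day 8 lay below both control arrays of day 6 for 16 of the 23 heart muscle genes that rose, against 48 of the 788 genes that rose in all (6.09%) and 35.6% of all genes tested. At day 8 the Sox17 shRNA arm was lower than control in all 10 thick filament genes tested, 7 of 12 thin filament genes and 12 of 17 Z-disc and titin genes, where 2.93% of all genes were lower and 1.89% higher. At day 6 it was lower in 9 of 10, 5 of 12 and 9 of 17 of them, where 2.36% of all genes were lower and 2.84% higher. The thick filament median was -3.23 at day 8 and -2.73 at day 6. These comparisons share arrays with the day 6 to 8 change and add no independent test of it.

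By list within the Sox17 shRNA arm, 7 of 10 thick filament genes rose (median 1.30), 5 of 12 thin filament genes (0.37) and 6 of 17 Z-disc, titin and M-band genes (0.46). Over all genes 5.93% rose and 6.64% fell. In the Z-disc list Ankrd1, a stretch-responsive protein, rose by 1.79, Unc45b, a myosin chaperone, by 1.36, and Nexn, nexilin, by 1.23. Of 12 genes of calcium handling and excitation 2 rose, Ryr2 (0.77), the calcium release channel, and Cacna1c (0.59), the L-type calcium channel, and Gja1 (-0.44), connexin 43, fell. The list had no call without replicate 1 of either day. Another probe set of Cacna1c and of Gja1 had the opposite sign. Of 14 natriuretic and metabolic genes Popdc2 (1.19), Bves (1.05) and Hspb7 (0.70) rose and Cox7a1 (-0.91) fell.

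Among 19 cardiac transcription factors 2 rose and 1 fell, where 5.93% of all genes rose and 6.64% fell. Mef2c, a MADS-box activator of muscle genes, had 7.82 and 6.89 in Sox17 shRNA arrays at day 8 against 5.96 and 5.99 at day 6, and 8.67 and 8.52 in control arrays at day 8 against 9.42 and 9.17 at day 6. Its change exceeded that of control by 2.08 (adjusted p = 0.0111, limma). That call ended without replicate 1 of the Sox17 shRNA at day 8 (adjusted p = 0.0562), without control replicate 2 of day 8 (0.0755), without control replicate 1 of day 6 (0.0871) and in a fit of the 8 arrays alone (adjusted p = 0.153). Myocd, myocardin, the coactivator of serum response factor, had 7.32 and 6.68 at day 8 against 6.13 and 6.16 at day 6, and its change exceeded that of control by 1.42 (adjusted p = 0.045, limma). The rise of Myocd, 0.86, was 0.54 without replicate 1 of the Sox17 shRNA at day 8 and 0.85 without replicate 1 of day 6. It was called in neither of these fits. In both genes the day 8 arrays lay above the day 6 arrays and below every control array of the 2 days. Foxh1, a partner of Smad2 in Nodal signalling, fell by 0.91.

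The factors that define the early heart field were not called. Nkx2-5 had 7.23 and 6.08 at day 8 against 6.41 and 6.17 at day 6 (0.36, adjusted p = 0.323, limma), so its 2 day 8 arrays lay on either side of day 6. Without replicate 2 of day 8 its difference was 0.94 and passed (adjusted p = 7.71e-04, limma). Gata4 had 7.84 and 7.36 at day 8 against 7.58 and 7.66 at day 6, and Tbx5 had 6.21 and 5.80 against 5.91 and 5.99. Neither gene separated the days.

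Among blood genes, members of the red cell and platelet lists rose. Of 60 genes tested in the lists of globins, erythroid genes, blood transcription factors and platelet genes, 13 rose and 4 fell, where 5.93% of all genes rose and 6.64% fell, so the falls were near the background. The median difference was 0.24. In control 4 of the 60 rose and 3 fell, where 5.65% of all genes rose and 2.68% fell. By limma no gene of these lists passed the test of the difference between arms, where 13 had a positive and 2 a negative difference at an unadjusted p below 0.05, so their changes are not shown to differ from control. With the replicate number within the arm as a block, 3 of these genes passed with a positive difference. The call of 0 is not stable: 2 were positive without replicate 2 of either Sox17 shRNA day, and 4 were positive and 2 negative with array quality weights. Leaving out 1 of the 4 arrays gave 8 to 17 rises, with 17 without replicate 2 of day 6 and 8 without replicate 1 of either day.

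The embryonic globins had large differences and a wide spread, and none of 4 was called by limma, with 2 at an unadjusted p below 0.05. Hba-x, the zeta chain of embryonic haemoglobin, had 12.82 and 12.11 in Sox17 shRNA arrays at day 8, against 7.60 and 11.28 at day 6. Control had 9.53 and 8.93 at day 8, against 8.77 and 10.73 at day 6. Day 8 lay above day 6 in the Sox17 shRNA arm by 3.03 (SE 1.07), but the day 6 replicates were far apart and the call was missed (adjusted p = 0.074, limma). Hbb-y, the epsilon chain, had 12.16 and 12.81 at day 8 against 8.77 and 9.69 at day 6 (3.26, SE 1.22, adjusted p = 0.0918, limma). Hbb-bh1, the early embryonic beta chain, had 13.58 and 12.93 at day 8 against 10.54 and 13.00 at day 6, so that the days overlapped (1.48, adjusted p = 0.464, limma). In all 3 genes replicate 2 of day 6 was the higher. Without that replicate Hba-x passed (4.87, adjusted p = 0.0084, limma). The median of the 4 globins tested was 2.26, and 0.72 without replicate 1 of day 6. Globins are a family of near-identical genes, so a probe set can read more than its own gene and these levels are uncertain to that extent.

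**Figure D3:**
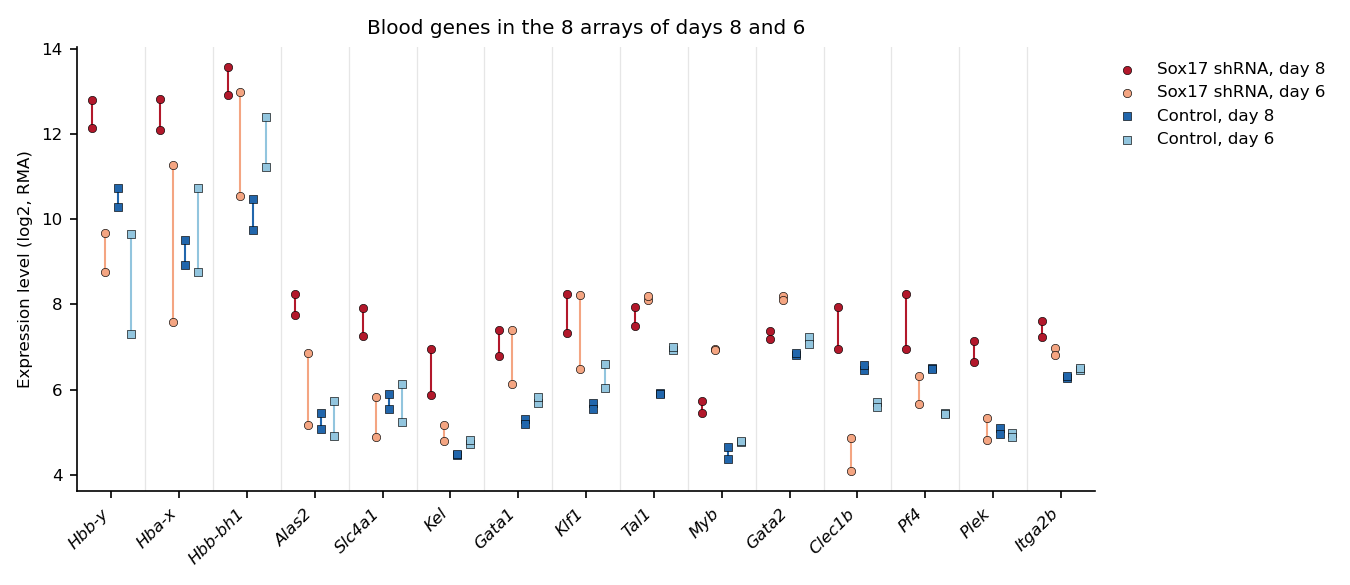
Expression level (log2, RMA) of 15 blood genes in the 2 arrays of each group, joined by a line, with Sox17 shRNA at day 8 (red) and day 6 (orange) as circles and control at day 8 (dark blue) and day 6 (light blue) as squares. Alas2, Slc4a1, Kel and Plek are highest in both Sox17 shRNA arrays of day 8, the globins differ widely between the day 6 replicates, and Myb is highest in the Sox17 shRNA arrays of day 6.

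Of 23 erythroid genes 6 rose and 1 fell, where 5.93% of all genes rose and 6.64% fell. Alas2, the first enzyme of haem synthesis in red cells, had 8.24 and 7.75 in Sox17 shRNA arrays at day 8 against 5.17 and 6.85 at day 6, and 5.44 and 5.07 in control arrays at day 8 against 4.90 and 5.74 at day 6. It rose 3.96-fold (adjusted p = 0.0107, limma) and was 2.74 above control at day 8 (adjusted p = 0.00142). Without replicate 1 of day 6 its rise was 1.14 (adjusted p = 0.206), and without replicate 1 of day 8 it was 1.74 (adjusted p = 0.0714). Slc4a1, band 3, the anion exchanger of the red cell membrane, had 7.91 and 7.26 at day 8 against 4.88 and 5.83 at day 6, a 4.69-fold rise (adjusted p = 6.54e-04, limma). The day 8 arrays of both genes lay above all other arrays of the 2 days. Kel, a blood group protein, rose by 1.44, and Cpox, a haem synthesis enzyme, by 1.05. Gypc and Ermap, named after their values were seen, rose by 0.95 and 0.55, and Car2, carbonic anhydrase 2, fell by 0.90. Replicate 2 was the higher at day 6 in all but 1 of the 23 genes, and the list had 2 rises without replicate 1 of either day and 8 without replicate 2 of day 6. Epor, the erythropoietin receptor, had 7.82 and 7.61 at day 8 against 7.23 and 7.72 at day 6.

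The promoters of 2 globins and of Alas2 are printed with the same motifs in capitals, from the same table and build.
Hba-x, chr11:32276350-32276649, plus strand: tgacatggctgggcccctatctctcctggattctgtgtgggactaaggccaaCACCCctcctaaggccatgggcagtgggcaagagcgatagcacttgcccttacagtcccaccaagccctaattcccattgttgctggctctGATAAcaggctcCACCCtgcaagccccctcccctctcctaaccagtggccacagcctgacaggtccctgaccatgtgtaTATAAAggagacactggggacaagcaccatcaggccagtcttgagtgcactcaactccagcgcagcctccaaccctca
Hbb-y, chr7:103853158-103853457, minus strand: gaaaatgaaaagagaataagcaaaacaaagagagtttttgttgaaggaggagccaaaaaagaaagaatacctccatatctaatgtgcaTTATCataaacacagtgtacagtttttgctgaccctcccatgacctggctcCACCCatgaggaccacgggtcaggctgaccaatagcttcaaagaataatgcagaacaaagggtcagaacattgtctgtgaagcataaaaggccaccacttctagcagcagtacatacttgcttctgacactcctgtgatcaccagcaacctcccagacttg
Alas2, chrX:150547167-150547466, plus strand: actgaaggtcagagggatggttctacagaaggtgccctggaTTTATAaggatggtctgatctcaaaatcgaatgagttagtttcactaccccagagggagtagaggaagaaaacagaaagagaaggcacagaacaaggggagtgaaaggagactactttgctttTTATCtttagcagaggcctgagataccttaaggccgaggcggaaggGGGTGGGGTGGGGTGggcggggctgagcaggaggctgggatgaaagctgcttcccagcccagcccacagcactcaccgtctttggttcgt
GATAA occurred at 1 place in each, at bases -107 to -103 of Hba-x, -162 to -158 of Hbb-y and -86 to -82 of Alas2. CACCC occurred in all 3, with 3 matches in a row at bases -40 to -26 of Alas2. Over the 27 fixed genes that have a promoter in the table, 12 held GATAA and 22 held CACCC. The shares over all promoters were 25.4% and 57.5%. These fixed genes are of heart, blood and other tissues, so the counts do not describe blood genes alone. Enrichment was not tested.

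Of 18 blood transcription factors none was called higher by limma (1 at an unadjusted p below 0.05, and 2 called without replicate 2 of day 6) and 3 were called lower. Myb, a factor of blood progenitors, had 5.72 and 5.45 at day 8 against 6.94 and 6.94 at day 6 (a fall by 1.35, adjusted p = 6.27e-05, limma), with the days clear of each other. Gata2, a factor of early progenitors, fell by 0.87. Bcl11a, a repressor of globin genes, fell by 0.63 in the probe set used, but other probe sets of it had the opposite sign. Gata1, the main erythroid factor, had 7.41 and 6.79 at day 8 against 6.13 and 7.41 at day 6 (0.33, adjusted p = 0.556, limma). Klf1, the erythroid factor that binds CACCC, had 8.25 and 7.33 at day 8 against 6.48 and 8.22 at day 6 (0.44, adjusted p = 0.538). Replicate 2 of day 6 stood with day 8 in both genes, and without it Klf1 passed (1.31, adjusted p = 0.0363, limma). Tal1 (-0.42) and Runx1 (-0.28) were not called. At day 8 both Sox17 shRNA arrays lay above both control arrays for 49 of the 60 blood genes, against 24.4% of all genes. By limma 8 of 23 erythroid genes, 7 of 18 transcription factors, 4 of 15 platelet genes and no globin were called higher. Over all genes that share was 1.89%. Against control, the median of the transcription factors was 0.38 at day 6 and 0.39 at day 8, and that of the erythroid genes 0.20 and 0.53.

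Of 15 megakaryocyte and platelet genes 7 rose and none fell, with a median of 0.53, where 5.93% of all genes rose. Clec1b, the podoplanin receptor of platelets, had 7.94 and 6.94 in Sox17 shRNA arrays at day 8 against 4.85 and 4.08 at day 6, a 7.88-fold rise (adjusted p = 3.22e-04, limma). Control had 6.46 and 6.59 at day 8 against 5.70 and 5.58 at day 6. Pf4, platelet factor 4, had 8.25 and 6.96 at day 8 against 6.31 and 5.65 at day 6, a 3.07-fold rise (adjusted p = 0.0118, limma) that was missed without replicate 1 of day 8 (0.97, adjusted p = 0.155) or replicate 2 of day 6 (1.29, adjusted p = 0.0898). Plek, pleckstrin, a signalling protein of platelets, had 7.13 and 6.65 at day 8 against 5.33 and 4.80 at day 6. The day 8 arrays of all 3 genes lay above the day 6 arrays. Thbs1 (2.32), thrombospondin, which many cells make, rose as well, as did Tubb1 (1.47), Itgb3 (1.34) and Ppbp (1.21), named after their values were seen. Itga2b, the alpha chain of the platelet fibrinogen receptor, had 7.60 and 7.23 at day 8 against 6.97 and 6.81 at day 6 (0.53, adjusted p = 0.16, limma). Of 17 leukocyte and macrophage genes only Cd34 (1.83), which endothelium also carries, was called.

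Of 30 endothelial genes 7 rose and 1 fell, with a median of 0.18, where 5.93% of all genes rose and 6.64% fell. Emcn, endomucin, rose by 1.92, Plvap, a protein of capillary pores, by 1.77, and Tek, the angiopoietin receptor, by 1.27. Etv2, the factor that starts the blood and endothelial lineages, had 6.80 and 5.79 at day 8 against 7.87 and 7.02 at day 6 and fell by 1.15. Kdr, the VEGF receptor, and Pecam1, a junction protein, were not called (0.23 and -0.10). The replicates disagreed here: replicate 1 was higher than replicate 2 at day 8 in 27 of the 30 genes, by a median of 0.87. Without replicate 1 of day 8 the list had 1 rise, and without replicate 1 of day 6 it had 2.

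Connective tissue genes rose in both arms. Of 31 fibrillar collagen and mesenchymal matrix genes 15 rose and none fell, with a median of 0.82, where 5.93% of all genes rose. In control 15 rose with a median of 0.91, where 5.65% of all genes rose. Apart from Lum, Col3a1, Postn and Col5a2, the risen genes included, named after their values were seen, Col1a2 (2.71), Col1a1 (2.43) and Dcn (1.86), decorin. By the test of the difference between arms no member was called more positive, and 1, Bgn, biglycan, was called more negative (-1.83, adjusted p = 0.00122, limma). Of 13 smooth muscle genes 4 rose, with Actg2, enteric smooth muscle actin, the largest (2.12), followed by Myl9 (1.49), Acta2 (1.18) and Synpo2 (0.56).

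Of 12 epicardial and mesothelial genes 6 rose, with a median of 0.79, where 5.93% of all genes rose. In control 2 rose, with a median of 0.01, where 5.65% of all genes rose. No member passed the test of the difference between arms, so the list is not shown to differ between them. Upk3b, a mesothelial membrane protein, had 7.37 and 6.31 in Sox17 shRNA arrays at day 8 against 4.96 and 5.26 at day 6, and between 5.05 and 5.48 in all 4 control arrays. It rose 3.32-fold (adjusted p = 0.00311, limma), but the difference from the control change, 1.93, did not pass (adjusted p = 0.147). Bnc1 (1.32), Tcf21 (1.23), a factor of epicardial cells, and Aldh1a2 (1.03), which makes retinoic acid, rose too. Bnc1 missed the threshold without the intensity trend (adjusted p = 0.0516, limma) and with array quality weights (adjusted p = 0.0901, limma). Aldh1a2 missed it in a fit of the 8 arrays alone (adjusted p = 0.0595, limma), and its rise was 0.66 without replicate 2 of day 6. The list had 2 calls without replicate 1 of day 8, and 3 without replicate 2 of day 6. Of 18 basement membrane genes 7 rose, among them Col4a5 (1.85), Lama1 (1.57), Nid2 (1.36) and Plat (1.27), with 2 called without replicate 1 of day 8 and 3 without replicate 1 of day 6.

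**Figure D4:**
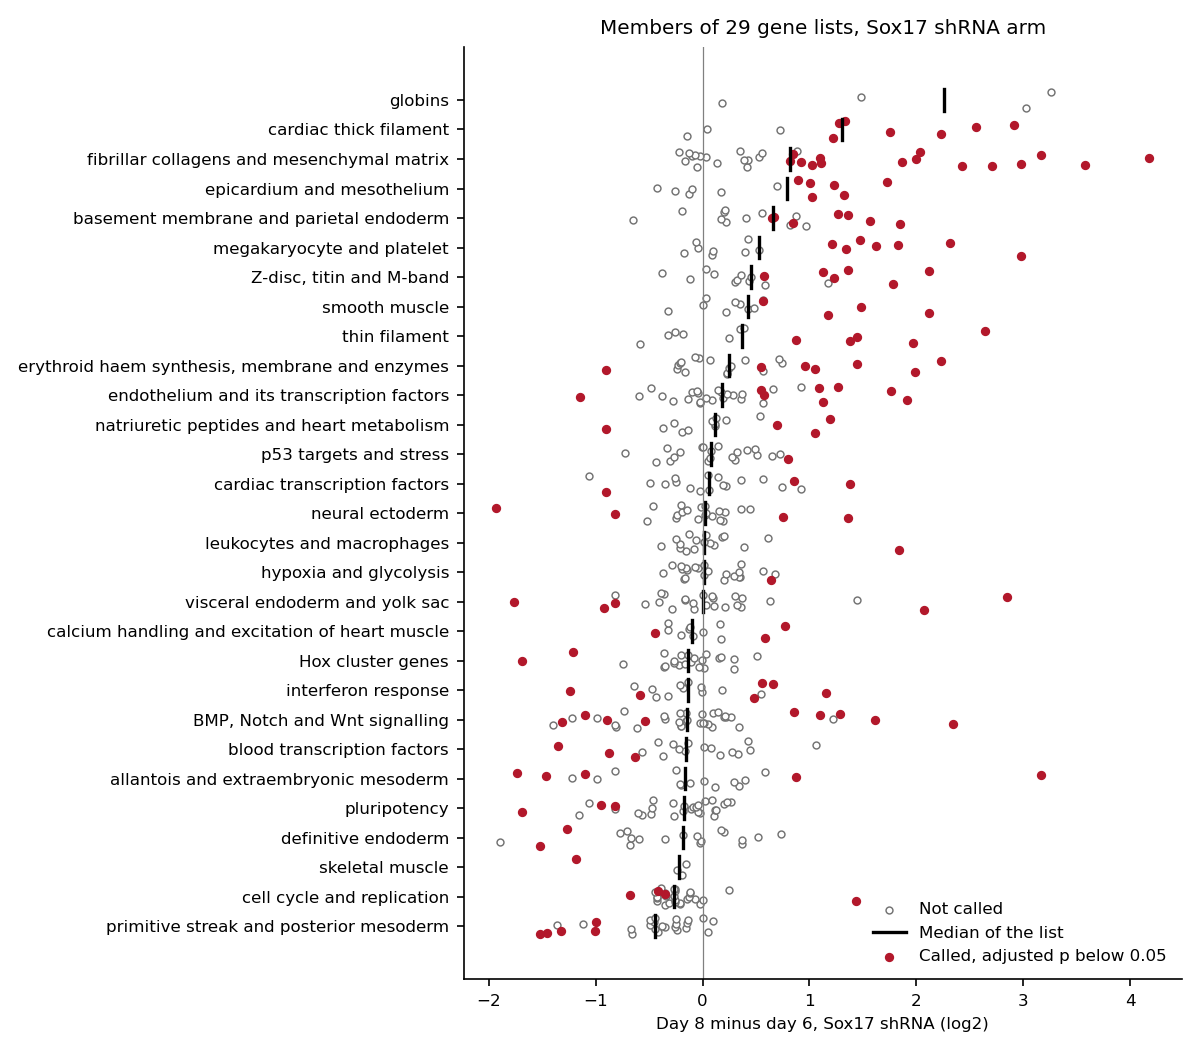
Day 8 minus day 6 difference (log2) in the Sox17 shRNA arm for every tested member of the 29 gene lists, 1 row per list in order of its median (black bar), with called members filled in red and members not called open. Globins have the highest median (2.26) with no member called, thick filament genes follow (1.30), and primitive streak genes have the lowest (-0.45).

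Some genes of early embryonic cells fell, where 6.64% of all genes fell. Of 27 primitive streak and posterior mesoderm genes none rose and 5 fell, with a median of -0.45. Besides Cdx2 these were Cyp26a1 (-1.46), which breaks down retinoic acid, Eomes (-1.32), Evx1 (-1.0) and, named after its value was seen, Nodal (-1.0). Of 29 pluripotency genes Fgf5, Sall4 (-0.95) and Otx2 (-0.82) fell, with Otx2 missed without each of the 4 arrays, and Pou5f1, the core pluripotency factor, had 7.12 and 7.60 at day 8 against 8.26 and 6.82 at day 6, with overlap. Of 23 Hox genes Hoxb6 and Hoxd9 (-1.22) fell. Of 18 genes of the allantois and extraembryonic mesoderm, Postn and Pitx1 rose and Spin2c, Plac1 and Rspo3 (-1.10) fell. Without replicate 1 of day 6 a single gene of the streak list was called.

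In the visceral endoderm and yolk sac list 2 of 27 genes rose and 3 fell, where 5.93% of all genes rose and 6.64% fell. Rbp4, the retinol carrier, had 10.93 and 10.01 in Sox17 shRNA arrays at day 8 against 7.33 and 7.92 at day 6, and 9.56 and 9.43 in control arrays at day 8 against 9.23 and 9.43 at day 6. It thus passed the control level, and its change exceeded that of control by 2.68 (adjusted p = 0.0208, limma). That call ended without replicate 1 of the Sox17 shRNA at day 8 (adjusted p = 0.118) or day 6 (adjusted p = 0.126), without each of the 4 control arrays (adjusted p between 0.0718 and 0.119) and in a fit of the 8 arrays alone (adjusted p = 0.102). Afp, alpha-fetoprotein, rose by 2.07 in the Sox17 shRNA arm and by 1.89 in control. Cited1 had 6.61 and 5.88 at day 8 against 7.90 and 8.12 at day 6, while control stayed between 8.20 and 8.36, and its change differed from control by -1.89 (adjusted p = 0.0273, limma). Amot (-0.92), a Hippo pathway scaffold, and Car4 (-0.82) fell, and another probe set of Amot had the opposite sign. Definitive endoderm genes had no rise and 2 falls among 19, Cdx2 and Trh (-1.27).

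Signalling genes were called both ways, where 5.93% of all genes rose and 6.64% fell. Of 39 BMP, Notch and Wnt genes 5 rose, led by Dkk2 (2.35), a Wnt antagonist, Id4 (1.61) and Sfrp2 (1.28), and 4 fell, among them Hey2 (-1.32), a Notch target, and Rspo3, a Wnt enhancer. In the remaining lists 2 neural genes rose (Lhx2, 1.36, and Ncam1, 0.75) and 2 fell among 23, 1 of 4 skeletal muscle genes fell (Tnnt3, -1.18), 1 cell cycle gene rose (Ccnd2, 1.43) and 3 fell (Mcm5, Pcna and Mcm7, at -0.68, -0.41 and -0.35) among 30. Of 17 interferon genes 4 rose, with Ifit2 the largest (1.15), and 2 fell, with Ifitm1 the larger (-1.24). Adm was the single call among 23 hypoxia genes (0.64) and Cdkn1a among 21 p53 targets (0.80). The counts of the neural, cell cycle, hypoxia and p53 lists were near the shares over all genes.

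Outside the lists, Tent5c and Apela had large positive differences between the arms. Tent5c, an RNA polymerase that extends poly(A) tails and is known in erythroid cells, had 6.83 and 6.22 in Sox17 shRNA arrays at day 8 against 3.73 and 4.19 at day 6, and 4.99 and 4.82 in control arrays at day 8 against 4.44 and 4.42 at day 6. Its changes differed by 2.09 (adjusted p = 0.00131, limma). The group means of Tent5c exceeded the level of the expression filter in the Sox17 shRNA arm at days 8 and 10 alone. It was thus tested mainly through groups where it was high. Keeping all genes took another probe set of Tent5c, with a difference between arms of 0.61. Apela, a peptide ligand of the apelin receptor, had 9.15 and 8.52 in Sox17 shRNA arrays at day 8 against 9.28 and 9.89 at day 6, and 7.05 and 6.68 in control arrays at day 8 against 9.96 and 9.90 at day 6. It fell by 0.75 in the Sox17 shRNA arm and by 3.07 in control. Of the 22 genes with a more positive change, 15 were called in the Sox17 shRNA arm and not in control, 2 in control and not in the Sox17 shRNA arm, and 5 in both. Of the 29 with a more negative change, these counts were 1, 25 and 3.

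The rest of the time course places these days. Tnnt2 had stood between 3.49 and 4.11 in all arrays of days 4 and 5 in both arms, and at day 10 it had 8.27 and 8.26 in Sox17 shRNA arrays, against 10.96 and 10.97 in control arrays. Tnni3 was still at 4.47 and 4.68 in Sox17 shRNA arrays at day 10, against 7.62 and 7.73 in control. Hba-x had reached 7.30 in replicate 1 of the Sox17 shRNA at day 4 and 5.14 in replicate 2, and it stood at 10.92 and 8.96 at day 10, below both day 8 arrays. Pf4 had 9.71 and 8.15 at day 10, and Lum 11.61 and 11.30.

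**Figure D5:**
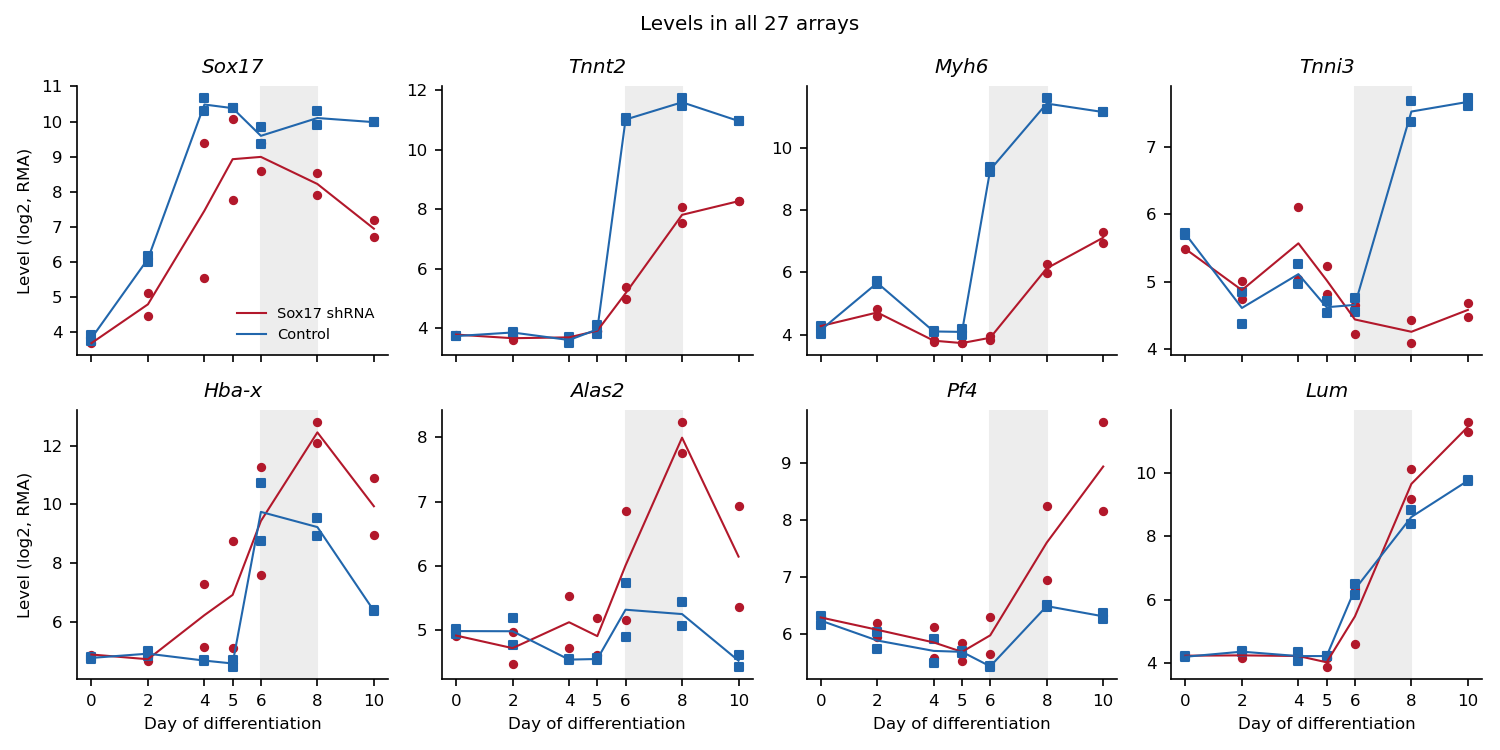
Levels (log2, RMA) of 8 genes by day of differentiation in all 27 arrays, with Sox17 shRNA as red circles, control as blue squares, lines through the means and days 6 to 8 shaded. Tnnt2 and Myh6 climb later and less far in the Sox17 shRNA arm, Tnni3 stays flat there, and Hba-x and Alas2 peak at day 8 in the Sox17 shRNA arm.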

How the data were processed

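Total RNA was hybridised to Affymetrix mouse arrays, and the deposited log2 expression values of 45101 probe sets were made with RMA, per the submitters' processing notes. Its version is not given in the sources used here. RMA quantile-normalizes arrays, so a difference is one against the rest of its array, and low levels flatten near the probes' background, which understates folds. The number of arrays limits the precision. Probe sets with 1 gene symbol in the platform annotation (34958, with 932 holding several and 9211 unlisted) were kept if 2 or more arrays exceeded 5.53, the median of the table, and each gene took its probe set with the highest mean, which left 13297 genes. Some genes were tested mainly through the groups where they were high. The group means of Tecrl, Nppa, Igfbp1, Foxd1 and Smpx exceeded 5.53 in control at days 8 and 10 alone. Those of Tent5c and Plek did so in the Sox17 shRNA arm at those days alone. A mean per arm and day (14 groups, 27 arrays) was fitted with limma 3.58.1 in R 4.3.3 with an intensity trend. All groups shared 1 estimate of the spread per gene. Tests were two-sided, adjusted by Benjamini and Hochberg over all genes, and checked on simulated data.

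Of 651 list entries counted as genes once, 540 were tested. Members and lists were chosen with earlier results of these data known. The rule for named genes took Sox17, Hhex and Cer1, the 10 largest rises and falls called with the days clear of each other, up to 4 called members per list, 32 fixed genes, and the 6 largest called differences between arms each way. T (no probe set with that symbol alone) and Hba-a1 (not above the filter) were not tested. Other genes are marked as named after their values were seen. Alternatives changed the arrays fitted, the replicate block, the variance model, the array weights, the centring, the filter and the choice of probe set, and left out each array in turn.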

Additional observations from a re-analysis of the deposited data

Results flagged for a closer look

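For 17 genes named by the rule in the methods, the day 8 minus day 6 change in the Sox17 shRNA arm differed from the change in the control arm by the interaction term of limma (adjusted p below 0.05 over all genes). The difference was positive for Rbp4 (2.68), Myl7 (2.54), Apela (2.32), Tent5c (2.09), Mef2c (2.08), Tnnt2 (2.06), Dlk1 (1.72), Myl4 (1.57) and Myocd (1.42). Of these, Tnnt2, Myl7 and Myl4 are contractile genes, whose control changes were 0.58, 0.38 and 0.99. The difference was negative for Tnni3 (-3.06), Tecrl (-2.56), Cacna2d2 (-2.49), Igfbp1 (-2.13), Srl (-2.06), Foxd1 (-2.03), Cited1 (-1.89) and Nppa (-1.48). Actn2, Csrp3, Smpx, Pln, Slc8a1, Kcnj5 and Bgn, named after their values were seen, also passed with negative differences that stand in the report. No group had the 4 arrays that a test for a single deviating array needs.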

How the results depend on the processing

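Each count was recomputed under alternatives. Leaving out 1 array at a time gave 375 to 768 rises and 298 to 804 falls in the Sox17 shRNA arm, 213 to 381 rises and 49 to 95 falls in control, 5 to 40 positive and 17 to 29 negative differences between arms, 85 to 351 higher and 197 to 353 lower genes in the Sox17 shRNA arm at day 8, and 109 to 348 higher and 120 to 304 lower at day 6. Array quality weights gave 519 rises and 512 falls in the Sox17 shRNA arm, 2416 rises and 2246 falls in control, 35 positive differences, and 454 higher and 609 lower genes at day 8. Centring arrays on their median gave 753 falls in control. A fit of the 8 arrays of days 6 and 8 alone gave 7 positive and 17 negative differences and 238 higher genes at day 6. Calls of Gata2, Cyp26a1, Otx2, Cox7a1, Amot and Lama1 were missed without each of the 4 Sox17 shRNA arrays. Averaging probe sets turned Bcl11a to 0.36 (adjusted p = 0.0518, limma). Keeping all genes took another probe set of Tent5c, whose difference between arms was 0.61. Replicate numbers are shared between days, but only 2 numbers exist and the labels do not say what they mark, so they were not taken to pair arrays. The replicate deviations of the Sox17 shRNA arm correlated between days by 0.05 to 0.80 over 15 pairs of days, and by 0.55 between days 6 and 8. With the replicate number within the arm as a block, 961 genes rose and 1098 fell in the Sox17 shRNA arm, no call of a gene named by the rule changed, and 3 blood genes gained a positive difference between arms. The cause of these shifts was not tested. The precision is limited by the 2 arrays per group.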
